A study of Mus musculus with 6 samples.

Results

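The genes described here encode subunits of the mitochondrial respiratory chain and of ATP synthase. They were chosen by gene symbol: the Ndufa, Ndufb, Ndufc, Ndufs and Ndufv genes and Ndufab1 of complex I, the 4 Sdh genes of complex II, the Uqcr genes of complex III, the nuclear Cox4 to Cox8 genes of complex IV, the Atp5 genes of complex V, and the mitochondrially encoded protein genes. The rule found 97 members among the 34745 genes of the table, 84 of them nuclear and 13 mitochondrially encoded, and left out 4 pseudogene symbols. A few symbols stand under a complex by name only. Ndufa4 is now placed in complex IV, Cox7a2l helps to join complexes into supercomplexes, and Atp5s and Atp5sl are not subunits of the ATP synthase itself. Cyc1, the cytochrome c1 subunit of complex III, is not caught by the rule and is given further on with the electron carriers. The small ATP synthase subunits Usmg5 and 2010107E04Rik are not caught either and are counted in the same list.

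RNA was sequenced from mouse CD4 T cells after 4 days of culture, with 3 PM2.5 libraries and 3 PBS libraries. In both groups naive CD4 T cells were isolated from spleens of female C57BL/6 mice aged 6 weeks, stimulated through CD3 and CD28, and polarised towards the IL-17 producing Th17 type with TGF-beta, IL-6, IL-2 and IL-23 while antibodies blocked IL-4 and IFN-gamma. The PM2.5 group received a suspension of fine airborne particulate matter at 100 µg/ml from 6 h after stimulation, and the PBS group received the saline buffer in its place. The design asks what the particles change in the transcripts of these cells. The labels do not tell whether the replicates came from different cultures or mice, and the p-values cover only the spread between these libraries, which may be technical.

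Complexes I and II pass electrons from NADH and succinate to coenzyme Q, complex III passes them to cytochrome c and complex IV to oxygen. Complexes I, III and IV pump protons across the inner membrane, and ATP synthase, complex V, uses their return to make ATP. Complexes I, III, IV and V mix subunits from both genomes, while complex II is wholly nuclear. Activated T cells raise both glycolysis and respiration as they grow, and Th17 cells use both.

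The PM2.5 libraries held 25397965 to 27215853 counts and the PBS libraries 19511561 to 22353131 counts, so each PM2.5 library was deeper. A count of 0 allows up to 0.110 to 0.118 CPM (a count scaled to the size of its library) in a PM2.5 library and 0.134 to 0.154 CPM in a PBS library, a floor of 3 counts that covers counting error only. The libraries carried the label's cell type: the 8 CD4 T cell markers summed to 3172 to 3207 CPM in PM2.5 libraries and 3795 to 3828 CPM in PBS libraries, and the 6 Th17 markers to 3078 to 3523 CPM in PM2.5 and 3678 to 3747 CPM in PBS libraries. In the test described below 6 of the 8 CD4 T cell markers fell and 2 rose. For the 6 Th17 markers 4 fell and 1 rose. Across all genes tested 35.3% fell and 35.2% rose. Markers of other cells were low and moved with the groups too. The CD8 and gamma-delta T cell list summed to 29.5 to 32.6 CPM in PM2.5 and 84.6 to 88.2 CPM in PBS libraries, the NK list to 21.9 to 23.3 CPM in PM2.5 and 27.6 to 33.0 CPM in PBS libraries, and the stromal and endothelial list to 47.3 to 50.7 CPM in PM2.5 and 82.8 to 88.1 CPM in PBS libraries. The neutrophil list summed to 0.551 to 0.689 CPM in PM2.5 and 5.28 to 6.27 CPM in PBS libraries, the macrophage list to 2.94 to 3.52 CPM in PM2.5 and 4.97 to 6.27 CPM in PBS libraries, and the B cell list to 0.268 to 0.441 CPM in PM2.5 and 1.08 to 1.7 CPM in PBS libraries. The dendritic cell list went the other way, with 2.56 to 3.5 CPM in PM2.5 and 0.948 to 1.3 CPM in PBS libraries. Among the markers of these lists were Ms4a1, Lyz2, S100a8, S100a9 and Clec9a, at 0 in every library, while other markers of the same lists had counts. The part of these cells in the results below was not tested. In bulk RNA, fewer cells of a type and less RNA per cell cannot be told apart.

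Transcripts of the respiratory chain were mostly lower after PM2.5, by small amounts. Of the 84 nuclear members 80 passed the filter on low counts, and among these 6 rose, 40 fell and 34 did not pass the test (edgeR's quasi-likelihood test, Benjamini-Hochberg adjusted p under 0.05 over all 12967 genes tested). Across all genes tested 70.6% passed, 35.2% higher and 35.3% lower in PM2.5, whereas 57.5% of the tested nuclear members passed, 7.50% higher and 50% lower. The median log2 fold change (PM2.5 over PBS throughout) was -0.18 over the nuclear members and -0.01 over all genes tested, and the nuclear median was -0.11 with an offset for gene length. The 40 nuclear members that fell did so by 6.70% to 33.8%, with a median fall of 18.1%. Among the 13 mitochondrially encoded genes 7 fell, 0 rose and 6 did not pass. Their median log2 fold change was -0.12, and it turned to 0.03 when an offset for gene length was added.

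The changes were small beside those of other genes. An absolute log2 fold change over 0.5 was seen in 8 of the 80 nuclear members, or 10.0%, against 44.0% of all genes tested. The median absolute log2 fold change was 0.21 for the nuclear members, 0.43 for all genes tested and 0.35 for the 4536 genes whose mean CPM lay between the quartiles of the nuclear members. The PM2.5 and PBS libraries did not overlap for 53 of 80 nuclear members, or 66.2%, 7 of them higher and 46 lower in PM2.5, against 74.9% of all genes tested. The members not tested were Cox4i2, with 0 to 5 counts a library, and Cox7b2, Cox8b and Cox8c, with 0 counts in all 6 libraries.

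**Figure D1:**
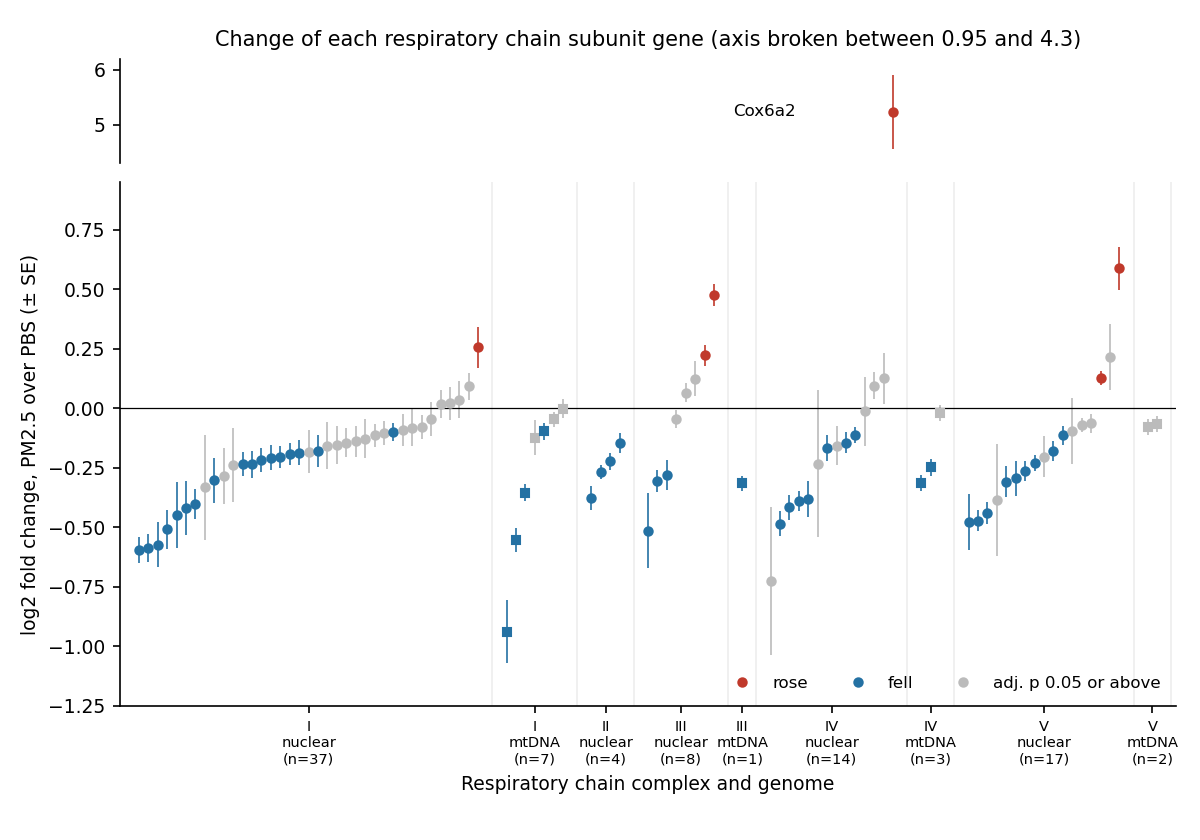
Log2 fold change, PM2.5 over PBS, with its standard error for the 93 members tested, grouped by complex and by genome; circles are nuclear and squares mitochondrially encoded genes, red rose, blue fell and grey did not pass edgeR's test. Of the nuclear members 40 are blue and 6 red, and Cox6a2, in the upper part of a broken axis, rests on few counts.

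In complex I, which takes electrons from NADH, 17 of 37 nuclear genes fell, 1 rose and the remaining 19 did not pass. The median log2 fold change over them was -0.18. Of the 30 accessory genes 17 fell, while of the 7 nuclear core genes, which carry the flavin, the iron-sulfur clusters and the quinone site, none passed. At an unadjusted p under 0.05 the count for the core was also 0, and it was 0 in DESeq2, while limma on FPKM called 3 lower and scaling by library totals 2 lower, and an offset for gene length 1 higher. By position, 1 of 10 genes of the NADH-binding N module fell, and none of 5 genes of the quinone-reducing Q module passed. Of the 22 remaining genes, mostly of the membrane arm, 16 fell, or 72.7%, and 1 rose. Ndufa4, now placed in complex IV, fell and is counted among the 37 nuclear genes, the accessory genes and these 22. For the Q module too, the count at an unadjusted p under 0.05 and the count in DESeq2 were 0, while limma called 2 lower and an offset for gene length 1 higher. The N module count was 2 at an unadjusted p under 0.05, 4 in limma and 4 with library totals, and 2 without PM2.5 replicate 2 or without PBS replicate 2. The difference between the parts of the complex was not tested.

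The 3 largest falls among the nuclear genes of complex I were in subunits of the membrane arm. Ndufa8, a subunit with disulfide bonds on the outer face of that arm (chr2:36036326-36049406 in mm10), had 36.8, 32.9 and 34.8 CPM in PM2.5 libraries, against 53.1, 50.9 and 53.8 CPM in PBS libraries. Its groups lie far apart, and the log2 fold change was -0.59 (SE 0.055, edgeR adjusted p 3.78e-06). Ndufb3, a small single-pass subunit, had 18.3, 18.3 and 17.5 CPM in PM2.5 and 27.4, 26.1 and 27.8 CPM in PBS libraries, a log2 fold change of -0.59 (SE 0.059). Ndufb10, another disulfide-bonded subunit, had 33.2, 35.8 and 34.0 CPM in PM2.5 and 56.7, 53.2 and 43.3 CPM in PBS libraries. Here the PBS libraries spread more widely, and the log2 fold change of -0.57 had an SE of 0.096 and an edgeR adjusted p of 0.000825.

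Ndufa13, also known as GRIM-19, fell by 29.7% to 23.9 ± 0.310 CPM in PM2.5, against 34.0 ± 4.07 CPM in PBS libraries (SD, n = 3 each). Ndufv3, an accessory subunit beside the flavin-binding core, fell in the N module, with a log2 fold change of -0.40. Ndufs4, Ndufa2 and Ndufv2 of the same module did not pass, but were called lower in limma and with library totals. Ndufb11, an X-linked subunit and the nuclear complex I gene with the highest mean FPKM (a level per length) over all 6 libraries, had 55.6 ± 1.68 FPKM in PM2.5 and 66.1 ± 4.06 FPKM in PBS libraries (SD, n = 3 each). Its fall, log2 fold change -0.19, did not pass with an offset for gene length.

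Ndufab1, the acyl carrier protein that complex I shares with mitochondrial fatty acid synthesis, was the 1 complex I gene that rose. It had 19.4, 18.3 and 17.9 CPM in PM2.5 and 14.0, 17.3 and 15.4 CPM in PBS libraries. The groups stand just apart. The log2 fold change was 0.26 (SE 0.085, edgeR adjusted p 0.0208), and the edgeR adjusted p was 0.0700 without PM2.5 replicate 1, 0.0850 without PBS replicate 1 and 0.0515 without PBS replicate 3. The call on Ndufab1 was also lost with library totals, with a filter at 5 CPM, in limma and with offsets for length and GC content. The core genes Ndufs1 and Ndufv1, which bind clusters and flavin, overlapped between the groups: Ndufs1 had 87.9 to 96.9 CPM in PM2.5 and 83.3 to 96.3 CPM in PBS libraries, and Ndufv1 had 38.1 to 46.3 CPM in PM2.5 and 41.8 to 43.1 CPM in PBS libraries.

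**Figure D2:**
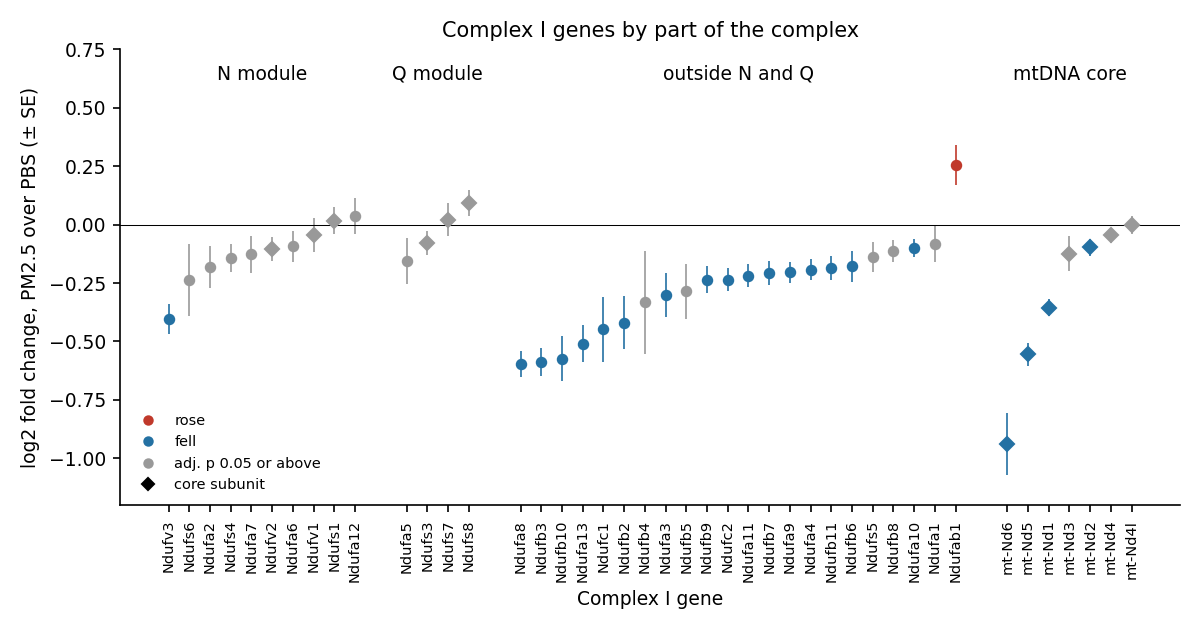
Log2 fold change, PM2.5 over PBS, with its standard error for 43 of the 44 complex I genes tested, by part of the complex; diamonds are core and circles accessory subunits, and colours are red for a rise, blue for a fall and grey for genes that did not pass edgeR's test. Blue points are 1 of 10 in the N module and 16 of 22 outside both, Ndufa4 of complex IV among them, and no gene plotted in the Q module passed.

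The promoters of members were read for motifs around the gene start. RefSeq's GRCm38.p6 table, with 250 bases before and 50 after each gene's start, held 70 of the members, 68 of them tested. Motifs known from respiratory genes were looked for on both strands: the NRF1 motif, which reads GCGC, A, any base, then GCGC, was present in 23.5% of the 68 promoters, against 10.0% of the promoters of all genes tested and 4.6% of all 32851 promoters. The YY1 motif AAGATGGC was present in 14.7% of members, 4.46% of genes tested and 2.75% of all promoters, and the ERR motif TCAAGGTCA in 2.94%, 0.283% and 0.423%. The ETS motif CCGGAAG, bound by GABP, was present in 22.1%, 17.7% and 8.86%. The Sp1 motif GGGCGG was present in 41.2% of members, 62.4% of genes tested and 35.7% of all promoters, and the CARE motif TTGCATCA in 0%, 0.65% and 0.895%. The NF-Y motif CCAAT was present in 44.1%, 37.9% and 37.4%, and the median log2 fold change was -0.26 over members with it and -0.15 over those without, a description with no test. Matches to different motifs overlapped in 1 of the 68 promoters. The NRF1 motif stood in 8 of the 36 promoters of members that fell and in 0 of the 4 of members that rose, against 16 of all 68. Uqcrq and Cox6a2, which rose too, had no promoter to read. The median log2 fold change was -0.2 over members with the NRF1 motif and -0.19 over those without. The promoter of Ndufa8, the complex I gene with the largest fall, holds 1 match to the NRF1 motif, in capitals, with any NF-Y or Sp1 match left in lower case (chr2:36049289-36049588, minus strand).
Ndufa8 promoter: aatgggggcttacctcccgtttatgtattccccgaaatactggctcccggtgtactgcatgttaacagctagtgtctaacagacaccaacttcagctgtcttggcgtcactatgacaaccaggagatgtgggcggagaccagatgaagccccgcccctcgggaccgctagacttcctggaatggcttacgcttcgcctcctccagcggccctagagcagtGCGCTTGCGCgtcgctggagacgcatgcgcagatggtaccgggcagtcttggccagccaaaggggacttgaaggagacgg

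All 4 genes of complex II, the succinate dehydrogenase that also serves in the citric acid cycle, fell, with a median log2 fold change of -0.24. Among all genes tested 35.3% fell. Sdha, the flavoprotein that oxidises succinate, had 253, 256 and 248 CPM in PM2.5 libraries, against 299, 305 and 307 CPM in PBS libraries, a log2 fold change of -0.27 (SE 0.029, edgeR adjusted p 1.29e-05). Sdhb, the iron-sulfur subunit, had 76.6, 78.8 and 75.3 CPM in PM2.5 and 89.7, 88.7 and 90.7 CPM in PBS libraries. In both genes every PM2.5 library was below every PBS library by more than the spread within a group. Sdhc, a membrane anchor that helps to form the quinone site, had the largest change of the complex, with 62.6, 61.8 and 56.0 CPM in PM2.5 and 80.7, 75.6 and 78.2 CPM in PBS libraries, a fall of 23.0%. Sdhd, the other anchor, had 74.9, 79.3 and 73.1 CPM in PM2.5 and 85.8, 83.2 and 82.3 CPM in PBS libraries. Its log2 fold change was -0.15 (SE 0.042, edgeR adjusted p 0.0107). The edgeR adjusted p of Sdhd was 0.0516 without PM2.5 replicate 3, DESeq2 gave it 0.0571, and it did not pass with an offset for gene length. Summed over the complex, the level was 465 ± 11.9 CPM in PM2.5 and 555 ± 3.08 CPM in PBS libraries (SD, n = 3 each).

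Complex III was divided. Of its 8 nuclear genes 2 rose, 3 fell and 3 did not pass, and the sum over them was 675 ± 10.1 CPM in PM2.5 and 667 ± 9.30 CPM in PBS libraries (SD, n = 3 each), with overlapping libraries. Uqcrq, a small subunit on the matrix side that contacts cytochrome b (chr11:53427922-53430831 in mm10), had 52.1, 55.3 and 55.6 CPM in PM2.5, against 38.6, 39.7 and 38.8 CPM in PBS libraries. The groups lie far apart, and the log2 fold change was 0.48 (SE 0.047, edgeR adjusted p 6.76e-06), or 1.39-fold higher. Uqcrfs1, the Rieske iron-sulfur protein and the nuclear complex III gene with the highest FPKM, had 120, 119 and 110 CPM in PM2.5 and 103, 96.4 and 99.7 CPM in PBS libraries, a log2 fold change of 0.22 (SE 0.043). Both kept their rise in all 15 alternative settings.

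The small subunits Uqcr11, Uqcrh and Uqcrb fell. Uqcrh, the hinge protein that helps cytochrome c dock, had 67.1, 71.1 and 71.4 CPM in PM2.5 and 83.6, 84.9 and 90.5 CPM in PBS libraries. Uqcrb had 37.0, 35.6 and 36.0 CPM in PM2.5 and 43.4, 47.7 and 40.9 CPM in PBS libraries. Neither gene's groups overlap, with falls of 19.0% for Uqcrh and 17.7% for Uqcrb. Uqcr11 had 13.4, 12.9 and 10.4 CPM in PM2.5 and 15.2, 15.8 and 21.4 CPM in PBS libraries, a log2 fold change of -0.51 whose SE was 0.158. The edgeR adjusted p of Uqcr11 was 0.0223, and it was 0.0584 without PM2.5 replicate 2 and 0.0581 without PM2.5 replicate 3. The 2 large core proteins Uqcrc1 and Uqcrc2, overlapped between the groups, Uqcrc1 at 168 to 173 CPM in PM2.5 and 167 to 181 CPM in PBS libraries, and Uqcrc2 at 169 to 186 CPM in PM2.5 and 166 to 172 CPM in PBS libraries.

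In complex IV, cytochrome c oxidase, 14 of the 18 nuclear genes were tested, of which 1 rose, 7 fell and 6 did not pass. With an offset for gene length 2 rose and 4 fell. Cox7a2, the common isoform of a small subunit at the dimer face, had 32.4, 32.4 and 30.5 CPM in PM2.5, against 43.1, 43.9 and 46.4 CPM in PBS libraries, a log2 fold change of -0.49 (SE 0.053, edgeR adjusted p 1.43e-05). Cox6c had 48.1, 49.3 and 44.8 CPM in PM2.5 and 65.6, 62.8 and 61.2 CPM in PBS libraries. Cox6b1, which lies on the intermembrane side where cytochrome c binds, had 72.2, 70.5 and 66.3 CPM in PM2.5 and 91.1, 89.9 and 93.1 CPM in PBS libraries. These 3 genes were the largest falls, of 28.6%, 25.1% and 23.7%, and in none did the groups overlap.

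Cox8a, with the highest FPKM of the nuclear genes of the complex, had 177 ± 13.1 FPKM in PM2.5 and 208 ± 10.2 FPKM in PBS libraries (SD, n = 3 each). Its log2 fold change was -0.17 (edgeR adjusted p 0.0230), and the edgeR adjusted p was 0.0786 without PM2.5 replicate 2, 0.0556 without PBS replicate 1 and 0.0777 without PBS replicate 3. With an offset for gene length the log2 fold change of Cox8a was 0.024. Cox4i1, a nuclear subunit that acts early in assembly, varied within the groups, with 138, 166 and 158 CPM in PM2.5 and 131, 155 and 181 CPM in PBS libraries, and did not pass.

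Cox6a2, known as the heart and muscle isoform of COX6A (chr7:128205435-128206387 in mm10), was the 1 complex IV gene that rose, from few counts. It had 16, 21 and 22 counts in the PM2.5 libraries and 1, 0 and 0 counts in the PBS libraries. The ratio of counts per scaled library was 50.2, with an exact 95% counting interval of 8.67 to 2016, and the edgeR adjusted p was 5.11e-05. The gene stayed a minor isoform. Of the summed FPKM of COX6A genes, it made up 0.824%, 1.04% and 1.07% in PM2.5 libraries, against 0.0608%, 0% and 0% in PBS libraries, and the rest was Cox6a1, at 127 to 143 CPM in PM2.5 and 119 to 135 CPM in PBS libraries, which did not pass, except as higher without PM2.5 replicate 1 and with offsets for gene length. Among the COX7A genes the share of Cox7a2 was 25.7 ± 0.440% in PM2.5 and 30.9 ± 0.689% in PBS libraries (SD, n = 3 each), and that of Cox7a2l 73.6 ± 0.454% in PM2.5 and 68.2 ± 0.610% in PBS libraries. Cox7a2l itself had a log2 fold change of -0.11, which was 0.0026 with an offset for gene length. Cox7a1, the muscle isoform, had 0.413, 0.352 and 0.362 CPM in PM2.5 and 0.751, 0.604 and 0.522 CPM in PBS libraries and did not pass.

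In complex V, ATP synthase, 2 of 17 nuclear genes rose, 9 fell and 6 did not pass. Thus 64.7% passed and 52.9% fell, against 70.6% and 35.3% of all genes tested. Atp5b, the catalytic beta subunit of the F1 head and the member with the highest nuclear count, had 1170, 1169 and 1137 CPM in PM2.5, against 1105, 1036 and 1043 CPM in PBS libraries. The groups do not overlap, and the change was small, log2 fold change 0.13 (SE 0.031, edgeR adjusted p 0.00406). It was 0.06 and did not pass when libraries were scaled by their totals alone. Of the 5 genes of the F1 head Atp5b rose, Atp5c1, Atp5d and Atp5e fell, and Atp5a1, the alpha subunit, did not pass, at 651, 646 and 620 CPM in PM2.5 and 680, 658 and 674 CPM in PBS libraries. The call on Atp5d, at log2 fold change -0.11, had an edgeR adjusted p of 0.0235, which was 0.0675 without PM2.5 replicate 1, 0.1 without PM2.5 replicate 3 and 0.0842 without PBS replicate 3.

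The largest falls of complex V were in the stalk and the membrane part. Atp5h, the d subunit of the peripheral stalk, had 47.6, 48.6 and 44.8 CPM in PM2.5 and 65.5, 65.3 and 65.0 CPM in PBS libraries, a log2 fold change of -0.47 (SE 0.045, edgeR adjusted p 5.33e-06). Atp5j2, the f subunit, had 54.7, 50.2 and 54.4 CPM in PM2.5 and 71.4, 71.6 and 73.2 CPM in PBS libraries. Atp5k, the e subunit that takes part in pairing of the enzyme, had 5.26, 5.33 and 5.47 CPM in PM2.5 and 6.58, 7.10 and 8.66 CPM in PBS libraries. In all 3 genes every PM2.5 library was lower than every PBS library.

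The genes of the c ring, the rotor through which protons pass, went in opposite directions. Atp5g1, Atp5g2 and Atp5g3 encode the same mature protein behind different import sequences. Atp5g1 had 22.1, 18.7 and 19.2 CPM in PM2.5 libraries, against 13.4, 12 and 14.4 CPM in PBS libraries, a log2 fold change of 0.59 (SE 0.091, edgeR adjusted p 0.000189), or 50.4% higher. Atp5g3, the main source in these cells, had 92.0, 90.5 and 88.1 CPM in PM2.5 and 106, 107 and 105 CPM in PBS libraries, a log2 fold change of -0.23 (SE 0.034). Neither gene's groups overlap. Atp5g2 had 3.68, 3.64 and 4.43 CPM in PM2.5 and 3.53, 3.02 and 3.53 CPM in PBS libraries and did not pass. Per length, by the deposited FPKM, the share of Atp5g1 in the 3 genes was 5.88 ± 0.428% in PM2.5 and 3.47 ± 0.319% in PBS libraries (SD, n = 3 each), and that of Atp5g3 88.8 ± 0.678% in PM2.5 and 92.4 ± 0.671% in PBS libraries. With the lengths of GENCODE coding transcripts the Atp5g1 shares were 3.16% in PM2.5 and 1.83% in PBS libraries. The lengths in the table run to a median of 2.05 times the longest coding transcript over the nuclear members, so levels per length between genes are uncertain.

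The promoters of the 2 c ring genes that moved apart are given to show their letters side by side. That of Atp5g3 (chr2:73911277-73911576, minus strand) holds an ERR match before the gene's start and an NRF1 match past it, both in capitals. That of Atp5g1 (chr11:96075582-96075881, minus strand) holds neither. NF-Y matches, left in lower case, number 5 in the Atp5g1 promoter and 1 in that of Atp5g3.
Atp5g1 promoter: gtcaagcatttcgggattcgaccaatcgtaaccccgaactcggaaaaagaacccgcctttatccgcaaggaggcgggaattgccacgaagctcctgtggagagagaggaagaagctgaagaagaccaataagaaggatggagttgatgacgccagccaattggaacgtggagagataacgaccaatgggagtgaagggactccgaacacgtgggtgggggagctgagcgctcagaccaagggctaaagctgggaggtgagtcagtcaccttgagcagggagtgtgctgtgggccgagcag
Atp5g3 promoter: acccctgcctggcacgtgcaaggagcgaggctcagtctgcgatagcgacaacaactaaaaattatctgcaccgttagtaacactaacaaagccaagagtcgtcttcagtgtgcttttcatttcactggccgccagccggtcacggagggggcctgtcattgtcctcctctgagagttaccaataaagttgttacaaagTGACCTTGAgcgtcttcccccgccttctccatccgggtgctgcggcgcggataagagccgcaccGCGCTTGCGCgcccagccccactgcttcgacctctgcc
These matches are descriptions of letters in a window, with no binding measured.

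**Figure D3:**
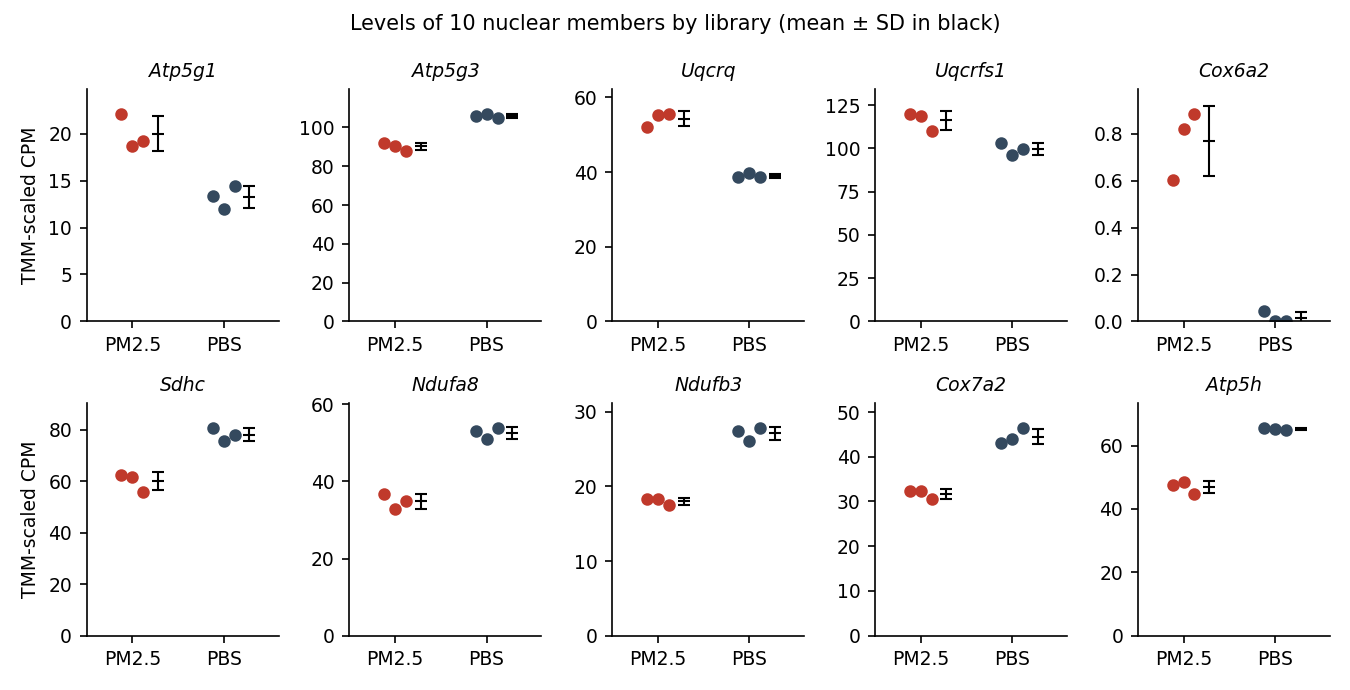
TMM-scaled CPM of 10 nuclear members in each library, PM2.5 in red left of PBS in blue, with mean and SD in black (n = 3 each) and each axis from 0. Atp5g1, Uqcrq, Uqcrfs1 and Cox6a2 lie higher and the other 6 genes lower in every PM2.5 library than in any PBS library.

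The mitochondrial genome encodes 13 of the members. Its genes are transcribed from both strands as long precursors that are cut into single transcripts, so that steady levels depend on later processing and decay, and mt-Nd6 is the lone protein gene on the light strand. Of these genes mt-Nd1, mt-Nd2, mt-Nd5, mt-Nd6, mt-Cytb, mt-Co2 and mt-Co3 fell, 0 rose at an adjusted or an unadjusted p under 0.05, and DESeq2 and limma called 0 higher as well. With an offset for gene length mt-Nd4l and mt-Atp8 were called higher. The genes abut and in places overlap, and neither the strand setting nor the handling of shared reads is given in the sources used here.

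mt-Nd6 had the largest fall, with 3.61, 2.78 and 3.26 CPM in PM2.5 libraries, against 5.57, 6.40 and 6.57 CPM in PBS libraries, a log2 fold change of -0.94 (SE 0.134, edgeR adjusted p 0.000111). mt-Nd5, a proton-pumping subunit of complex I, had 1672, 1609 and 1730 CPM in PM2.5 and 2426, 2626 and 2307 CPM in PBS libraries, a log2 fold change of -0.55 (SE 0.049). mt-Nd5 and mt-Nd6 overlap by 14 bases on opposite strands, so without a known strand setting reads there cannot be assigned. mt-Nd1, which lines the quinone channel, had 2414, 2462 and 2459 CPM in PM2.5 and 2981, 3309 and 3090 CPM in PBS libraries. mt-Cytb, the core of complex III, had 3572, 3591 and 3682 CPM in PM2.5 and 4349, 4712 and 4431 CPM in PBS libraries. The 2 groups lie apart in all 4 genes, and the falls of mt-Nd1 and mt-Cytb came to 21.8% and 19.6%.

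Among the 3 core genes of complex IV, mt-Co3 and mt-Co2 fell, with log2 fold changes of -0.31 and -0.25. The log2 fold change of mt-Co2 was -0.08 with an offset for gene length, where it did not pass (edgeR adjusted p 0.0644). mt-Co1, the catalytic subunit and the most abundant member, had 15753, 16004 and 16543 CPM in PM2.5 and 15947, 17110 and 15889 CPM in PBS libraries. The mt-Co1 libraries overlap, and the edgeR adjusted p was 0.617. mt-Nd2 fell by 6.47%, and its edgeR adjusted p of 0.0334 was 0.112 without PM2.5 replicate 1, 0.0849 without PM2.5 replicate 2, 0.0511 without PM2.5 replicate 3 and 0.0678 without PBS replicate 2. Without PBS replicate 1 the number of mitochondrially encoded genes called lower was 10, against 6 or 7 without any other library.

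**Figure D4:**
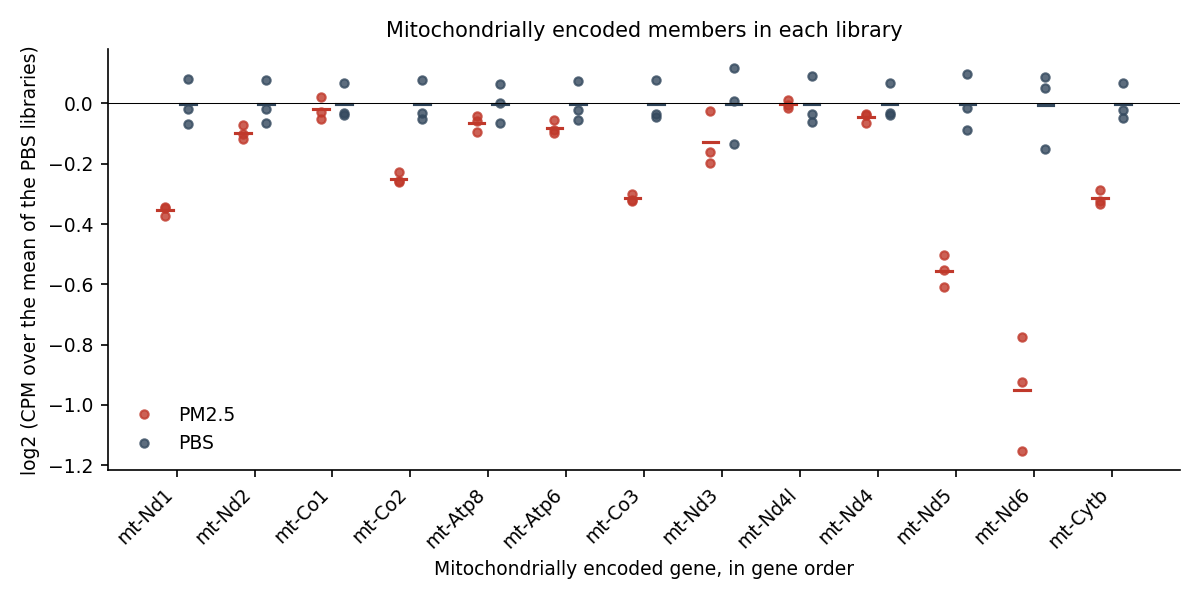
Log2 of the CPM in each library over the mean of the PBS libraries for the 13 mitochondrially encoded genes in gene order, PM2.5 in red left of PBS in blue, with a bar at each group mean. mt-Nd1, mt-Co2, mt-Co3, mt-Nd5, mt-Nd6 and mt-Cytb stand clear of the PBS libraries, and mt-Co1, mt-Nd4 and mt-Nd4l overlap with them; the median over the 13 genes turned from -0.12 to 0.03 with an offset for gene length.

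mt-Atp8 and mt-Atp6, subunits of the ATP synthase membrane part, overlap on MT at 7927 to 7969 and lie on a single transcript. mt-Atp8 had 1842, 1888 and 1909 CPM in PM2.5 and 1879, 2054 and 1967 CPM in PBS libraries. mt-Atp6 had 5259, 5294 and 5407 CPM in PM2.5 and 5415, 5923 and 5533 CPM in PBS libraries. Their log2 fold changes were -0.07 (edgeR adjusted p 0.108) and -0.08 (edgeR adjusted p 0.0532), and both passed as lower without PBS replicate 1, with edgeR adjusted p of 0.0197 for mt-Atp8 and 0.0175 for mt-Atp6. The pair mt-Nd4l and mt-Nd4, which overlap by 7 bases, did not pass. mt-Nd4l had 673, 660 and 665 CPM in PM2.5, against 640, 711 and 651 CPM in PBS libraries, and mt-Nd4 had 2838, 2788 and 2847 CPM in PM2.5, against 2841, 3056 and 2850 CPM in PBS libraries. The shared bases are shown because a read across them belongs to both genes of a pair.
mt-Atp8 and mt-Atp6 overlap: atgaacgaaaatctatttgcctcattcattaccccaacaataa
mt-Nd4l and mt-Nd4 overlap: atgctaa
In the first sequence the opening atg is the start codon of mt-Atp6 and the closing taa the stop codon of mt-Atp8, and in the second they belong to mt-Nd4 and mt-Nd4l.

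The makeup of the mitochondrially encoded counts shifted, with 12 of the 13 genes not overlapping between the groups as shares of the summed counts. By CPM the groups did not overlap for 8 of the 13, or 61.5%, against 74.9% of all genes tested. Shares within a set were not computed for other genes, so the count of 12 has no such background. mt-Co1 held 36.8%, 37.1% and 37.6% of them in PM2.5 libraries, against 34.2%, 33.9% and 33.9% in PBS libraries. mt-Nd5 held 3.91%, 3.73% and 3.93% in PM2.5 and 5.21%, 5.20% and 4.92% in PBS libraries. The shares of mt-Co1, mt-Atp6, mt-Atp8, mt-Nd4, mt-Nd4l and mt-Nd2 were higher in PM2.5, those of mt-Nd1, mt-Co2, mt-Co3, mt-Nd5, mt-Nd6 and mt-Cytb lower, and mt-Nd3 overlapped. Shares add to a whole, so a rise of some requires a fall of others, and they show unequal change rather than its direction.

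Summed over each genome, both parts took a smaller share of the library in PM2.5. The 84 nuclear members held 0.590%, 0.597% and 0.581% of counts in PM2.5 libraries, against 0.668%, 0.648% and 0.665% in PBS libraries. The 13 mitochondrially encoded members held 4.18%, 4.22% and 4.3% in PM2.5 and 4.76%, 5.14% and 4.82% in PBS libraries. The groups do not overlap in either sum, and the ratios of the mean shares, PM2.5 over PBS, were 0.893 and 0.863. Wilson 95% intervals, which cover counting error only, were 0.587 to 0.593% for the nuclear share of PM2.5 replicate 1 and 0.665 to 0.672% for that of PBS replicate 1. The balance of the 2 genomes, mitochondrially encoded per nuclear count, was 7.09, 7.06 and 7.40 in PM2.5 and 7.12, 7.94 and 7.24 in PBS libraries, with overlapping groups.

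**Figure D5:**
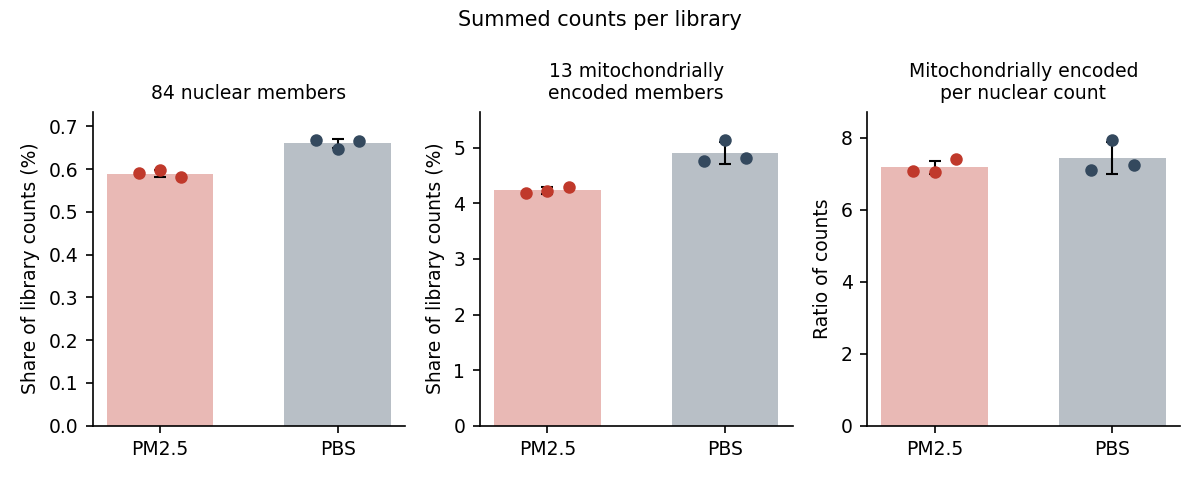
Share of library counts (%) held by the 84 nuclear and the 13 mitochondrially encoded members, and the ratio of the 2 sums, in PM2.5 (red, left) and PBS (blue, right) libraries; bars are means, black lines SDs and points libraries (n = 3 each). Shares are lower in each PM2.5 library, 0.581 to 0.597% against 0.648 to 0.668% and 4.18 to 4.3% against 4.76 to 5.14%, while the ratios overlap at 7.06 to 7.40 and 7.12 to 7.94.

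Genes that build or feed the chain did not follow the subunits as a block. Across all genes tested 35.2% were called higher and 35.3% lower, and the counts of each list stand beside these shares. Of 14 assembly factors of complex I tested, 4 rose, 4 fell and 6 did not pass, or 28.6% each way, an even split like that of all genes. Ndufaf4 rose, with 18.7, 17.8 and 18.4 CPM in PM2.5 and 9.72, 9.97 and 11.9 CPM in PBS libraries. Acad9, an assembly factor related to acyl-CoA dehydrogenases, fell, with 56.8, 49.9 and 48.3 CPM in PM2.5 and 110, 101 and 94.0 CPM in PBS libraries. Of 21 complex IV assembly factors 6 rose, 6 fell and 9 did not pass, again 28.6% each way. Sco2, a copper chaperone for the second subunit, rose, with a log2 fold change of 0.96, and Cox20, which helps the same subunit mature, fell, with 4.58, 4.97 and 5.35 CPM in PM2.5 and 11.1, 11.6 and 11.2 CPM in PBS libraries.

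Of 4 complex II assembly factors 1 rose, 1 fell and 2 did not pass. Sdhaf4, which guards the assembling flavoprotein, fell, with a log2 fold change of -0.82, and Sdhaf3 rose, with 0.49 (edgeR adjusted p 0.0148, 0.0514 without PM2.5 replicate 2 and 0.0594 without PBS replicate 1). Of 6 complex III assembly factors Ttc19 rose, with a log2 fold change of 0.49, 0 fell and 5 did not pass; the count that fell was 0 at an unadjusted p under 0.05 and in DESeq2, 1 in limma and 1 without PBS replicate 1. The count that rose was 3 without PBS replicate 2 and 2 with an offset for gene length. Of 5 genes for ATP synthase assembly or inhibition 2 rose, 1 fell and 2 did not pass. Atpif1, the inhibitor that binds the F1 head, fell, with 47.8 CPM in each PM2.5 library and 67.4, 64.3 and 70.2 CPM in PBS libraries. 1110001J03Rik, the listed symbol of an assembly factor also named Fmc1, rose, with a log2 fold change of 0.60 (edgeR adjusted p 0.0289), which was 0.110 without PM2.5 replicate 3, 0.0900 without PBS replicate 1 and 0.0774 without PBS replicate 3.

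Among 11 genes listed as other electron carriers 3 rose, 3 fell and 5 did not pass. The list is broader than its name. It holds Aifm1, which fell, and the small ATP synthase subunits Usmg5, which fell, and 2010107E04Rik, which did not pass. Gpd2, the glycerol phosphate dehydrogenase that passes cytosolic electrons to coenzyme Q, rose, with 73.7, 75.5 and 77.7 CPM in PM2.5 and 39.4, 39.4 and 41.3 CPM in PBS libraries (log2 fold change 0.92, edgeR adjusted p 2.46e-08). Sqrdl, the sulfide quinone oxidoreductase, fell, with 3.64, 3.72 and 3.90 CPM in PM2.5 and 10.2, 11.0 and 10.1 CPM in PBS libraries. Both feed the coenzyme Q pool beside complexes I and II. Cyc1, with 92.4, 95.2 and 93.9 CPM in PM2.5 and 95.2, 90.5 and 90.7 CPM in PBS libraries, overlapped between the groups. Of 13 genes listed under coenzyme Q synthesis, not all of them enzymes of that pathway, 3 rose and 10 did not pass. Coq10b had the largest rise of the list, a log2 fold change of 1.1. None of the 13 fell by edgeR or DESeq2, and 2 fell in limma. At an unadjusted p under 0.05, and without PBS replicate 1 or 2, 1 fell. Of 12 genes of supercomplexes and cristae 3 rose, 2 fell and 7 did not pass, and 1 fell without PM2.5 replicate 1, without PBS replicate 1 or 2, and in DESeq2. Immt, the scaffold of cristae junctions, rose, with a log2 fold change of 0.50, and Minos1, a partner in the same complex, fell, with -0.30.

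The genes that copy, transcribe and process mitochondrial DNA were mostly higher. Of 23 genes of mitochondrial DNA expression 15 rose, 1 fell and the other 7 did not pass, or 65.2% higher and 4.35% lower. Their median log2 fold change was 0.46, against -0.12 over the 13 mitochondrially encoded genes, a median that was 0.03 with an offset for gene length. Tfam, which packs the DNA and starts transcription, had 64.3, 63.3 and 66.7 CPM in PM2.5 and 40.7, 41.1 and 43.3 CPM in PBS libraries, and Polrmt, the mitochondrial RNA polymerase, had 57.6, 56.4 and 58.2 CPM in PM2.5 and 37.6, 35.1 and 40.9 CPM in PBS libraries. Lrpprc, which stabilises the transcripts of the heavy strand, had 110, 117 and 111 CPM in PM2.5 and 81.3, 83.1 and 81.6 CPM in PBS libraries. In all 3 the groups lie apart. Top1mt, the mitochondrial topoisomerase, had the largest rise, with 19.3, 20.8 and 19.8 CPM in PM2.5 and 7.20, 6.24 and 6.09 CPM in PBS libraries, and Mterf2 was the 1 gene that fell, with a log2 fold change of -0.38. The count that fell was 2 without PM2.5 replicate 3 or PBS replicate 1. Tfam, Polrmt and Lrpprc were picked with their values known.

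Of 10 genes tested from a list of nuclear regulators of respiratory genes 5 rose, Nfe2l1 among them, 1 fell and 4 did not pass. Without PM2.5 replicate 1 the number that fell was 2. Nfe2l1, the largest rise of the list, is a factor known for proteasome and stress genes rather than for respiratory genes. It had 138, 120 and 144 CPM in PM2.5 and 40.4, 40.2 and 38.8 CPM in PBS libraries. Its log2 fold change was 1.75. Ppargc1b, a coactivator of oxidative genes, had 1.95, 2.70 and 3.14 CPM in PM2.5 and 3.71, 3.83 and 4.05 CPM in PBS libraries, and its fall had an edgeR adjusted p of 0.0136 and a DESeq2 adjusted p of 0.0555. Nrf1, whose motif was counted above, had 49.0, 48.9 and 49.3 CPM in PM2.5 and 46.1, 39.0 and 46.9 CPM in PBS libraries and did not pass. Of 17 citric acid cycle and pyruvate dehydrogenase genes 8 rose, 5 fell and 4 did not pass, and 3 fell without PM2.5 replicate 2 or 3. Dld, the lipoamide dehydrogenase that makes NADH in several complexes, rose, with 188, 195 and 186 CPM in PM2.5 and 97.9, 109 and 98.3 CPM in PBS libraries.

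Of the 53 members called, 36 kept their direction and their call under all 15 alternative settings that tested them. These were 27 of the 40 nuclear falls, 5 of the 7 mitochondrially encoded falls and 4 of the 6 rises, namely Uqcrq, Uqcrfs1, Atp5g1 and Cox6a2. With an offset for gene length 11 members were called higher and 38 lower, against 6 and 47 without it. Many small nuclear subunits have processed pseudogenes, and how the authors treated reads that match several places is not given in the sources used here. Of the pseudogene symbols left out, Atp5l2-ps had 11 to 21 counts a library and the other 3 had 0 to 7.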

How the data were processed

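Counts were deposited per Ensembl gene for the 6 libraries, per the file headers, with FPKM values by the authors beside them. For the 9540 genes with over 100 counts in every library, these FPKM equal the count over the library total and 1 length per gene to within 0.00071%. TopHat2 2.0.6 and mm10 stand in the submitters' processing notes. Neither the counter and annotation nor the strand setting and RNA selection were stated in those notes or the labels.

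Genes passing filterByExpr (minimum count 10, minimum total 15; 12967 genes with 99.9% of counts) entered edgeR 4.0.16 (R 4.3.3), fitted over all 6 libraries, with TMM scaling, glmQLFit with robust estimation, a two-sided quasi-likelihood F test and Benjamini-Hochberg adjustment with a threshold of 0.05. CPM are TMM-scaled, and marker sums and shares use library totals. SEs are of log2 fold changes. The common biological coefficient of variation was 8.17%. Alternatives used DESeq2 1.42.0, limma 3.58.1 on log2(FPKM + 1) (pseudocount 1), other scalings and filters, offsets for gene length and GC content, and each library left out. Named genes are all mitochondrially encoded and Sdh genes, in each other complex up to 3 largest rises and falls with groups apart and the highest FPKM, isoform families, and the largest rise and fall of each list; others were named with their values known. The members and lists were chosen with earlier results of these data known. The values of 2 genes that these rules cover are not reported here.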

Additional observations from a re-analysis of the deposited data

How the results depend on the processing

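The number of genes called over the whole table, 9149, ranged from 7342 to 9582 over all alternatives, and no count of members called lower in the nuclear set moved by more than 1.5 times. Nuclear members called higher numbered 3 with a filter at 5 CPM, against 6, and 5 to 6 with 1 library left out. At 5 CPM Cox6a2 was left untested, while Atp5b and Ndufab1 were tested and lost their call. Mitochondrially encoded members called higher numbered 2 with offsets for gene length and 2 with offsets for length and GC content, against 0; the offsets for length and GC content were chosen after seeing the data. Those called lower numbered 11 with scaling by library totals, against 7, and 6 to 10 with 1 library left out. The median log2 fold change of nuclear members, -0.18, was -0.25 with library totals, -0.25 with the filter at 5 CPM, -0.22 in limma, -0.11 with length offsets and -0.12 with length and GC offsets. That of mitochondrially encoded members, -0.12, was -0.19 with library totals, -0.19 in limma and 0.027 with length offsets, and -0.19 to -0.07 with 1 library left out. The ratio of shares was 0.933 with TMM scaling and 0.863 without the most abundant member for the nuclear set (0.893 as reported), and 0.902 and 0.822 for the mitochondrially encoded set (0.863 as reported). With length offsets the log2 fold changes turned to 0.25 for mt-Nd4l, 0.23 for mt-Atp8, 0.0026 for Cox7a2l, 0.02 for Cox5a, 0.027 for mt-Nd2 and 0.024 for Cox8a, and with length and GC offsets to 0.17 for mt-Nd4l, 0.09 for mt-Atp8 and 0.02 for Cox8a. The cause was not tested. Deviations from the group mean were correlated at 0.0134, 0.0072 and 0.045 between samples with the same replicate number. Between samples with different numbers the correlations ran from -0.0374 to 0.0235. With 3 libraries a group these values cannot tell whether equal numbers mark a shared mouse or day. With a replicate block 9003 genes were called, with 6 nuclear members higher and 39 lower and 0 and 8 mitochondrially encoded members; Uqcr11 and Ndufb6 lost their call, and Atp5f1 and mt-Nd3 gained one. Each PM2.5 library was deeper than each PBS library, and the part of depth in the results was not tested.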
